A study of Mus musculus with 4 samples.

Results

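The genes described here encode the machinery of S phase, the part of the cell cycle in which DNA is copied. The list holds 51 genes, of which 49 were on the array, read by 85 of its 22690 probe sets, among 12394 named genes in all. Members were taken by name: every probe set whose platform annotation gave exactly 1 gene symbol, that symbol being on the list. Gins2 and Chaf1a had no such probe set. Gene expression had been measured in myogenic cells of C57BL/6 mice, 8 to 12 weeks old, taken from the hind limb at days 2, 3, 5 and 14 after injury with cardiotoxin, a venom toxin that destroys muscle fibres and sets off regeneration. An antibody, SM/C-2.6, is mentioned in the labels without its use. The cells were taken without culture, and uninjured muscle was not analysed here. Each day was hybridised to 1 Affymetrix array, so the series holds 4 arrays, no day has a replicate, and no p-value can be given. The sources used here do not give the number of animals behind an array.

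A cell that is about to divide first marks the start points of replication, the origins, by loading the MCM helicase in an inactive form, a step called licensing. At the start of S phase kinases and helper proteins switch the helicase on, polymerases copy the opened strands, and enzymes of nucleotide synthesis supply the building blocks. Transcription factors of the E2F family switch on many of these genes as cells pass from G1 into S phase, and resting satellite cells, the stem cells of muscle, keep them low until injury calls the cells into division. After injury the myoblasts that descend from satellite cells multiply for some days and then either fuse into fibres or return to rest.

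Signals below are MAS5 signals, scaled so that the arrays share a trimmed mean, in arbitrary units. They can be compared between days for 1 probe set, not between genes. Signals below a floor of 43.0 (the pooled median after scaling) were raised to it, and a gene with both days of a comparison at this floor counts as not measured there. A gene was called lower or higher at a difference of at least 2-fold. Measured members numbered 48 of the 49, the exception being Tyms, which encodes thymidylate synthase: its 3 probe sets lay under the floor on every array, the brightest reading being 24.8 on day 2. Of the 48, 45 were above the floor on all 4 arrays. Orc1, Rfc3 and Ccne2 were measured through their early signals alone, so a lower value later was built into their measurement.

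Since many of the members share the E2F factors as known regulators, their promoters are shown first. The motif searched was the E2F consensus of 8 letters, spelled TTTCCCGC, TTTCGCGC, TTTGCCGC or TTTGGCGC, on both strands, over RefSeq promoters of assembly GRCm38.p6 that run from 250 bases before to 50 bases after a gene's start. Of the 49 members, 41 had an entry. Those without one were Gmnn, Mcm4, Gins1, Rfc2, Prim2, Pole, Ccne2 and Ccna2. The 6 promoters below belong to the members with a match that are described in full and were lowest on day 14 relative to day 2, and the capitals mark the matches. Their positions are chr11:98907901-98908200 (plus strand) for Cdc6, chr8:75109259-75109558 (plus strand) for Mcm5, chr5:151651159-151651458 (minus strand) for Rfc3, chr17:56304063-56304362 (plus strand) for Uhrf1, chr7:44548766-44549065 (minus strand) for Pold1 and chr7:13278576-13278875 (plus strand) for Lig1, and each reads 5′ to 3′ along its gene's strand.
Cdc6: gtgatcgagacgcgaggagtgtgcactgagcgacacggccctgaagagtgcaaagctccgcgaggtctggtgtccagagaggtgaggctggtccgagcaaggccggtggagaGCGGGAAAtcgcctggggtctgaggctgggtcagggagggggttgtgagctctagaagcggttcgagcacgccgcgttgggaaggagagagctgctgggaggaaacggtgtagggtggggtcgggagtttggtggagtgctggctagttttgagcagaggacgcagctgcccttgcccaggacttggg
Mcm5: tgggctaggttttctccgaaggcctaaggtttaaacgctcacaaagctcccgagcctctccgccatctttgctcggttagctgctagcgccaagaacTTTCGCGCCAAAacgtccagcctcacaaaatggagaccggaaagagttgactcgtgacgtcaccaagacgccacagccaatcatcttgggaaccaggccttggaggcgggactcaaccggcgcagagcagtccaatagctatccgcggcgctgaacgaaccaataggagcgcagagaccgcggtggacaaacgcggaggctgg
Rfc3: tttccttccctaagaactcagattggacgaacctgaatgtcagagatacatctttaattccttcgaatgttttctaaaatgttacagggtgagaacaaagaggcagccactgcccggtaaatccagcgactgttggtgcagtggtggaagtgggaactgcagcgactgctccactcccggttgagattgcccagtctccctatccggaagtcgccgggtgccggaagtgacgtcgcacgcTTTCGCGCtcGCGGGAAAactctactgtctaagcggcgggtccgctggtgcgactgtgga
Uhrf1: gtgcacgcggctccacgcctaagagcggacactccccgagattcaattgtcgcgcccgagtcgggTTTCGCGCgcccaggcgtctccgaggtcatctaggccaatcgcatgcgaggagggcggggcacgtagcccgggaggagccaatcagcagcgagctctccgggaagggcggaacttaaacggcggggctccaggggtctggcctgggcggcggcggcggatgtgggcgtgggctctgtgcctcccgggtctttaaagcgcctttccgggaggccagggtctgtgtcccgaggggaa
Pold1: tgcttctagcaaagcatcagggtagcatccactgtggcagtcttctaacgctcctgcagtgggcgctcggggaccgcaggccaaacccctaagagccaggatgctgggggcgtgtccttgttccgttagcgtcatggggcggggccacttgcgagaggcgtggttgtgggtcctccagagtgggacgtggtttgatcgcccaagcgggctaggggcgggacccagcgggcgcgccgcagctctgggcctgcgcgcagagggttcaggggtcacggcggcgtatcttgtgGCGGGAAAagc
Lig1: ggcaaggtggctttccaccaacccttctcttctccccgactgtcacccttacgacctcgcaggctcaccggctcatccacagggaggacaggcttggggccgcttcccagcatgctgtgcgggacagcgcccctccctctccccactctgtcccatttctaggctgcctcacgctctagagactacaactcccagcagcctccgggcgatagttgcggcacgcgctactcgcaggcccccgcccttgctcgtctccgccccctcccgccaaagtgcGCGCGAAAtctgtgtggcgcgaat

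In the Mcm5 promoter the capitals hold 2 overlapping matches on opposite strands, and in the Rfc3 promoter 2 matches stand side by side at the start of the gene, at positions -10 and 1. The match of Cdc6 begins at position -138, counted from the start of the gene, and that of Uhrf1 at position -185. Those of Pold1 and Lig1 lie just inside the transcribed part, at positions 40 and 27. The other members with a match were Cdt1, Dtl, Mcm3, Mcm6, Mcm7, Orc1, Pola1 and Pole2, and Mcm6 held 3 matches. In all, 14 of 41 members (34.1%) had a match, against 402 of 9883 genes on the array with a promoter entry (4.07%). Counted over promoters, the shares were 28.6% of the members' 49, 3.38% of the 12560 of genes on the array and 2.26% of all 32851. G and C made up 60.1% of the members' promoters, 59.0% of those of genes on the array and 53.8% of all promoters.

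Another pair of motifs gave a different order. The cell cycle homology region, spelled TTTGAA or TTCGAA and known from genes of G2 and mitosis, was found in 9 of 41 members (22.0%) and in 17.3% of genes on the array, but in 29 of 41 G2 and mitosis genes (70.7%). Those late genes had the E2F consensus in 3 of 41 cases (7.32%). The NF-Y box, CCAAT, was found in 56.1% of members, 70.7% of G2 and mitosis genes and 42.3% of genes on the array. A match is a run of letters, not a measured binding site.

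**Figure D1:**
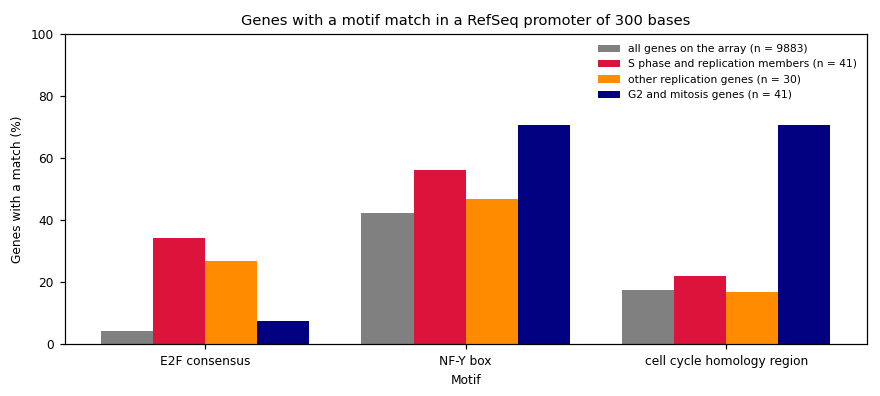
Share of genes (percent, y axis) with at least 1 match of each motif (x axis) in a RefSeq promoter of 300 bases, for the S phase members, other replication genes, G2 and mitosis genes and all genes on the array. The E2F consensus stands at 34.1% in the members and 7.32% in the G2 and mitosis genes, and the cell cycle homology region at 22.0% and 70.7%.

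Over the whole course, all 48 measured members were at least 2-fold lower on day 14 than on day 2, and none was higher. Over all 7668 genes measured in that comparison, 14.8% were lower by as much. The median log2 ratio of the members was -2.21, against 0.20 over all measured genes, and the members ranged from -3.88 for Tk1 to -1.11 for Rpa3. Counting the 45 members above the floor on both arrays alone, all 45 were lower. On day 14 these 45 kept a median of 22.2% of their day 2 signal, from 6.80% for Tk1 to 46.2% for Rpa3. By the probe sets used here, day 2 was the highest array for 47 of the 48 members, and day 14 the lowest for 46.

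The steps between neighbouring days share arrays, so each step's values are given side by side. On day 3, 5 of 48 measured members were at least 2-fold lower than on day 2 (1.80% of all measured genes were) and the median log2 ratio was -0.43 against 0.06 over all measured genes. On day 5, 28 of 47 were lower than on day 3 (5.97% of all measured genes), with a median of -1.08 against 0.06. On day 14, 9 of 47 were lower than on day 5 (3.10% of all measured genes), with a median of -0.76 against 0.01. No member was called higher at any of these steps, while 6.69%, 11.6% and 4.81% of all measured genes were. The counts at the first and second steps moved with the scaling of the arrays: as deposited, without scaling, they were 10 and 11 (4.21% and 2.62% of all measured genes), and with the arrays scaled to a common median 21 and 39 (11.6% and 11.4%). Of the 45 members above the floor throughout, 34 had their largest step from day 3 to day 5, 7 into day 14 and 4 into day 3, but as deposited the numbers were 15, 21 and 9. With a common median they were 30, 4 and 11, and after quantile normalization 33, 10 and 2. As deposited the members' medians at the 3 steps were -0.62, -0.77 and -0.85, so which step was the largest depended on the scaling. This holds too for the step values given gene by gene below.

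**Figure D2:**
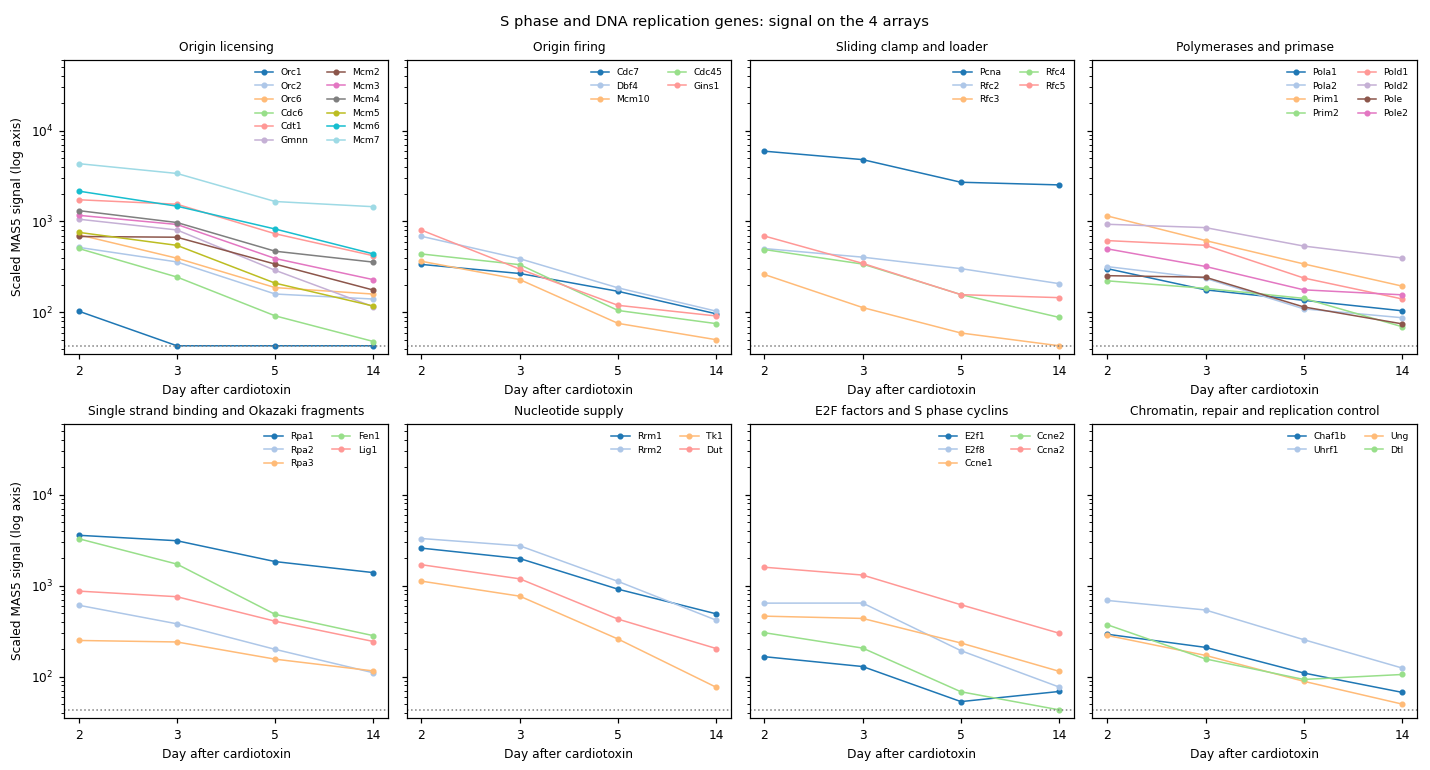
Scaled MAS5 signal (arbitrary units, log axis) of each measured member on the 4 arrays, by day after cardiotoxin (x axis, days evenly spaced), in 8 panels by role. Each point is 1 array, there are no replicates, and the dotted line is the floor of 43.0, at which lower signals are drawn. Of the 48 lines, 47 start at their highest point on day 2 and 46 end at their lowest on day 14.

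The labels of days 2 and 5 share one wording and those of days 3 and 14 another, and whether this marks separate processing is not stated. Each comparison above spans both wordings. Within them, 41 of 48 measured members were lower on day 5 than on day 2 (11.4% of all measured genes), with a median log2 ratio of -1.55. Those not past 2-fold were Ccne1, Cdc7, Pold2, Prim2, Rfc2, Rpa1 and Rpa3. On day 14, 42 of 47 were lower than on day 3 (11.5% of all measured genes), with a median of -1.75, and Dtl, E2f1, Pcna, Pola1 and Rfc2 did not pass. All were below 0 in both comparisons.

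Origin licensing genes had 12 measured members, all lower on day 14 than on day 2, with a median log2 ratio of -2.11. Cdc6, the loader that brings the helicase to the origin, read 505, 245, 91.7 and 47.9 on days 2, 3, 5 and 14. It was lower on each day than on the one before and ended 10.5-fold lower, close to the floor. Gmnn encodes geminin, the inhibitor that blocks a second round of licensing, and read 1059.8, 807, 290.5 and 115. It was 9.18-fold lower on day 14. By the probe sets and scaling used here it was the only licensing gene past 2-fold between days 5 and 14 (2.52-fold lower). The other Mcm6 probe set gave a log2 ratio of -1.32 at that step. As deposited, Cdc6 (-1.03), Mcm2 (-1.04) and Mcm6 (-1.0) were called there too. The binding partner of geminin, Cdt1, which loads the helicase together with Cdc6, went from 1734 on day 2 to 419.9 on day 14 (4.13-fold lower).

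The origin recognition complex marks the origins. Its largest subunit, Orc1, gave a signal of 103 on day 2 and was below the floor on the 3 later arrays, at least 2.41-fold lower. Orc6 was 4.50-fold lower and Orc2 3.70-fold lower on day 14 than on day 2, and both had most of that behind them on day 5, with 89.1% and 90.3% of the log2 difference. By the probe sets used here, the 6 subunits of the MCM helicase ring, Mcm2 to Mcm7, spanned 2.97-fold lower for Mcm7 to 6.47-fold lower for Mcm5. Their order depended on the probe set. Other probe sets gave log2 ratios of -2.84 for Mcm3, -2.74 for Mcm2 and -2.14 for Mcm7, beside -2.69 for the only Mcm5 probe set. Mcm5 read 759.5, 546, 209.8 and 117.5 on days 2, 3, 5 and 14. On day 3 none of the 6 was past 2-fold, Mcm2 reading 684 on day 2 and 671 on day 3. On day 5, by the probe sets used here, 4 of the 6 were past 2-fold against day 3, and Mcm2 and Mcm6 were 1.98-fold and 1.78-fold lower. This split moved with the probe set. The other Mcm2 probe set passed 2-fold at that step (log2 ratio -1.65). Another of Mcm4 (-0.71) and another of Mcm3 (-0.97) did not.

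Origin firing genes turn the loaded helicase on, and all 5 measured ones were lower on day 14 than on day 2 (median log2 ratio -2.73). Gins1, a subunit of the GINS complex that completes the active helicase, read 803, 299.5, 119.7 and 91.4 on days 2, 3, 5 and 14. It was 2.68-fold lower on day 3 already, the lowest ratio of any member at that step, and 8.79-fold lower on day 14. Mcm10, which helps open the DNA at origins, read 365, 229.7, 75.8 and 50.1, and was 7.28-fold lower by day 14. Cdc45, another part of the active helicase, was 5.83-fold lower on day 14 and had its largest step between days 3 and 5 (3.19-fold).

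The kinase that triggers firing was represented by both of its parts. Dbf4, the regulatory subunit, read 687, 389.7, 186 and 103 on days 2, 3, 5 and 14, 6.66-fold lower at the end. Cdc7, the catalytic subunit, had the smallest difference of the firing genes: it read 337, 268, 170.6 and 96.5, 3.49-fold lower on day 14, and no single step passed 2-fold.

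**Figure D3:**
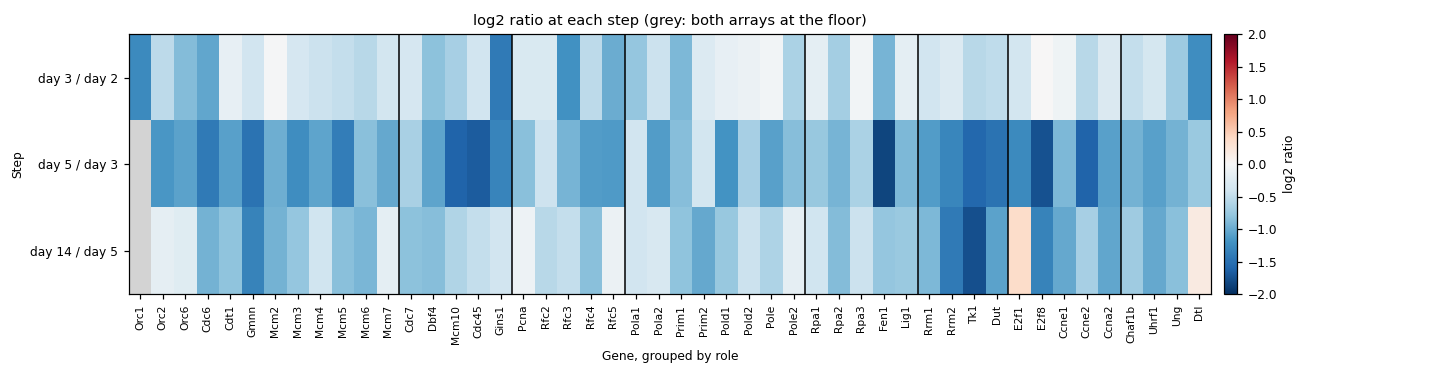
log2 ratio of each measured member (x axis, grouped by role in the order of the text) at the 3 steps between neighbouring days (y axis), blue for lower and red for higher on the later day. Grey marks both arrays at the floor, as for Orc1 after day 3. Under the scaling drawn, 34 of the 45 members above the floor throughout are darkest at day 5 against day 3, a number that is 15 with the values as deposited, and the only values above 0 at the last step belong to E2f1 and Dtl.

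The sliding clamp PCNA holds polymerases on DNA and is loaded by the RFC complex, and the 5 genes of both were lower on day 14 than on day 2 (median log2 ratio -2.25). Pcna read 5929.5, 4789, 2700.3 and 2524 on days 2, 3, 5 and 14. Its difference was the smallest of this group, 2.35-fold, and 92.1% of it on the log2 scale was reached by day 5. Rfc3 read 261, 113 and 59.4 and then lay under the floor at 42.2, at least 6.08-fold lower on day 14 and 2.31-fold lower on day 3. Its other probe set went from 80.8 on day 2 to 51.8 on day 14, a log2 ratio of -0.64, and so did not pass 2-fold. Rfc4 read 491.5, 340.2, 157 and 88.2 (5.57-fold lower on day 14), its other probe set giving a log2 ratio of -1.56 in place of -2.48. Rfc5 read 692.5, 346, 157 and 145, its value on day 3 standing at a log2 ratio of -1.0, just short of a call, and it was 4.76-fold lower on day 14. Rfc2 differed least among the loader subunits, at 2.43-fold.

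Polymerases and primase had 8 measured members, all lower on day 14, with the median closest to 0 of the 8 role groups (log2 ratio -1.72). Prim1, the catalytic subunit of the primase that lays down the RNA primers, read 1150.8, 617, 341 and 194.8 on days 2, 3, 5 and 14. It was 5.91-fold lower at the end, and by this probe set its steps were alike, at 1.87-fold, 1.81-fold and 1.75-fold. The other Prim1 probe set had unlike steps, with log2 ratios of -1.06, -0.62 and -0.42. Prim2, its partner subunit, had 38.3% of its log2 difference behind it on day 5, the lowest share of any member, and was 2.05-fold lower between days 5 and 14. Pold1, the catalytic subunit of polymerase delta, read 616, 547, 239 and 140.8, 4.38-fold lower on day 14. That probe set carries the suffix by which the array's makers mark probes shared with other transcripts, and the other Pold1 probe set gave a log2 ratio of -0.52.

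The accessory subunit of polymerase delta, Pold2, read 931.8, 856, 536.7 and 397, 2.35-fold lower, the smallest difference among the polymerase genes. Pola2, the accessory subunit of polymerase alpha, read 319, 237, 109.5 and 87.5, 3.65-fold lower. The catalytic subunits of polymerases alpha and epsilon, Pola1 and Pole, were 2.91-fold and 3.39-fold lower on day 14, but differed in when: Pola1 had 50.3% of its log2 difference behind it on day 3, and Pole 3.26%.

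Genes for binding the opened strand and finishing the lagging strand had 5 members, all measured and all lower on day 14 (median log2 ratio -1.84). Fen1, the flap endonuclease that trims the ends of Okazaki fragments, read 3277, 1723, 482.5 and 281 on days 2, 3, 5 and 14. By the probe sets used here it was 11.7-fold lower at the end, second to Tk1 among all members. Between days 3 and 5 it was 3.57-fold lower, by those probe sets the largest difference of any member at that step. Its shown probe set also carries the mark for shared probes. The other gave a log2 ratio of -2.73 in place of -3.54 over the whole course, and of -1.15 in place of -1.84 at that step. Lig1, the ligase that joins the fragments, read 869.7, 754.7, 405.6 and 242.7 (3.58-fold lower).

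The RPA complex coats single-stranded DNA, and its subunits lay far apart. Rpa2 read 608, 380.0, 198.9 and 109.9, 5.53-fold lower on day 14. Rpa3 read 249.2, 239.9, 155 and 115 and was 2.16-fold lower, the smallest difference of any member by the probe sets used here. Rpa1 was 2.57-fold lower. RPA also serves in DNA repair outside S phase.

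Nucleotide supply genes stood lowest of the groups on day 14, with a median log2 ratio of -3.02 over the 4 measured. Tk1, thymidine kinase, which salvages thymidine for DNA synthesis, read 1119, 765, 258 and 76.1 on days 2, 3, 5 and 14. It was 14.7-fold lower, the largest difference of all members by the probe sets used here. Its largest step was the late one, 3.4-fold between days 5 and 14. Rrm2, the regulatory subunit of ribonucleotide reductase, read 3293, 2737, 1111 and 416, 7.91-fold lower, and its 3 measured probe sets gave log2 ratios from -4.0 to -2.98. The one used here, at -2.98, carries the mark for shared probes, and those without it gave -4.0 and -3.63. The catalytic partner of Rrm2, Rrm1, read 2580.2, 1982, 912.7 and 489 (5.28-fold lower). Dut, the enzyme that removes dUTP so that uracil is kept out of DNA, read 1696, 1187, 427.6 and 203 (8.35-fold lower). All 4 were past 2-fold between days 3 and 5, and Tk1, Rrm2 and Dut again between days 5 and 14.

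E2F factors and S phase cyclins had 5 measured members, all lower on day 14 than on day 2 (median log2 ratio -2.41). E2f8, a repressor of the E2F family that is itself expressed in S phase, read 641 on day 2 and 642.5 on day 3, then 192.5 and 76.6. By the probe sets used here it was the only member without a lower value on day 3. This depended on the scaling, with log2 ratios of -0.18 as deposited and -0.50 with a common median. Other probe sets of E2f1 (0.45), Pold1 (0.42), Rpa1 (0.14) and Prim2 (0.06) also read higher on day 3 than on day 2. E2f8 was 3.34-fold lower on day 5 than on day 3. E2f1, an activator of S phase genes, read 165, 129, 53.0 and 68.5. By this probe set it was the only 1 of these 5 members that read higher on day 14 than on day 5 (log2 ratio 0.37, not called). Its other probe set read 89.4, 121.9, 85.0 and 65.7, a log2 ratio of -0.44 over the whole course, so E2f1 passed 2-fold by 1 of its 2 probe sets.

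Cyclins E and A activate CDK2 at the entry to S phase and during it. Ccne2 read 303, 205.5 and 68.0 and lay under the floor on day 14, at least 7.06-fold lower than on day 2. Ccne1 read 461, 435, 233.7 and 114, 4.04-fold lower, with 4.15% of its log2 difference behind it on day 3. Ccna2 read 1592, 1306, 616 and 299.3, 5.32-fold lower, its other probe set giving a log2 ratio of -3.70 in place of -2.41.

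Of the genes for chromatin, repair and control of replication, 4 were measured and all were lower on day 14 (median log2 ratio -2.30). Uhrf1, which brings the maintenance DNA methyltransferase to newly copied DNA, read 686.5, 538.9, 254 and 124 (5.53-fold lower). Ung, the enzyme that cuts uracil out of DNA, read 283, 170.7, 88.6 and 49.8 (5.69-fold lower). Chaf1b, a subunit of the assembly factor that places histones behind the fork, read 291.7, 209, 109 and 67.0 (4.36-fold lower). Dtl, which targets Cdt1 for destruction once replication has begun, read 371, 156, 92.8 and 105. It was 2.38-fold lower on day 3 already and 3.53-fold lower on day 14. By the probe sets used here, Dtl and E2f1 were the 2 members that read higher on day 14 than on day 5. The log2 ratio of Dtl was 0.18, not called.

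The 5 members called on day 3, where 1.80% of all measured genes were lower, were Gins1, Orc1, Dtl, Rfc3 and Cdc6. The 9 called between days 5 and 14, where 3.10% were, were Tk1, Rrm2, Gmnn, E2f8, Dut, Ccna2, Prim2, Ccne1 and Uhrf1. Both sets moved with the scaling. As deposited, Dbf4, Fen1, Orc6, Prim1 and Rfc5 were called on day 3 as well, and Cdc6 was called at both steps. With a common median Tk1, Dut and Mcm6 were called at both.

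Members with several probe sets gave a partial check within the arrays. Of 20 members with more than 1 measured probe set, 16 had every measured probe set at least 2-fold lower on day 14 than on day 2. The exceptions were Rfc3, Pold1, E2f1 and Orc2, in the last of which a dim probe set gave a log2 ratio of -0.31. No member had probe sets on both sides of 0 in that comparison. Of the 20, 5 had probe sets over 1 log2 unit apart there. Every measured probe set was called lower in 0, 7 and 3 of the 20 at the 3 steps, and 4, 0 and 2 had probe sets on both sides of 0. The SD of a log2 ratio between probe sets of 1 gene, where both arrays were above the floor, was 0.49 for the members in the whole course and 0.26, 0.28 and 0.22 at the 3 steps. That spread leaves out differences between animals and between labellings.

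**Figure D4:**
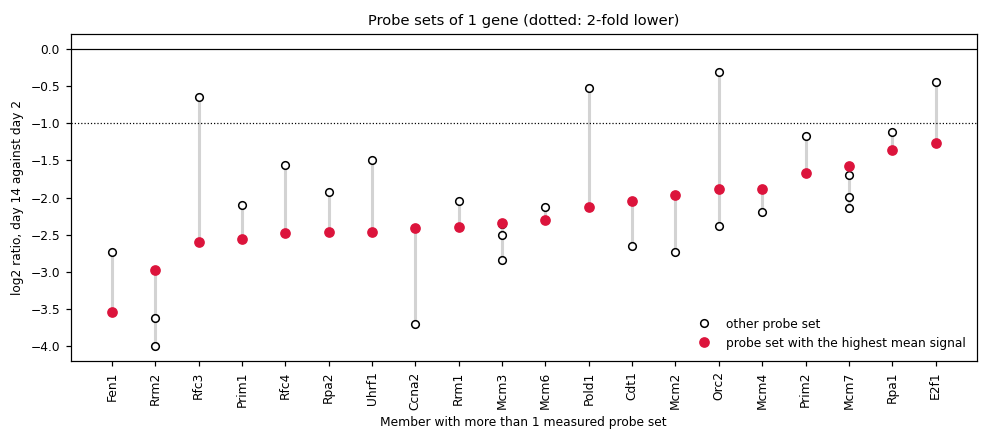
log2 ratio of day 14 against day 2 (y axis) for each measured probe set of the 20 members that have several (x axis). Filled points are the probe set used in the text, open points the others, and the dotted line marks 2-fold lower. All points lie under 0, and the open points of Rfc3, Pold1, Orc2 and E2f1 lie above the dotted line.

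Replication genes outside the list, taken from a list of 50, gave smaller differences. Of 34 measured in the whole course, 23 were lower (14.8% of all measured genes were), and the median log2 ratio was -1.36. Hells, a chromatin remodeller of dividing cells, was at least 9.54-fold lower, Shmt1, which serves thymidylate synthesis, 9.21-fold, Wdhd1, which links polymerase alpha to the helicase, 6.70-fold, and the repair gene Brca1 5.86-fold. Others did not differ by 2-fold: Timeless, of the fork protection complex, had a log2 ratio of 0.03, the topoisomerase Top1 -0.05, and Rrm2b, the ribonucleotide reductase subunit used outside S phase, 0.67. The closest paralogue on the list, Rrm2, was at -2.98 by the probe set used here.

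The genes of the next phase, G2 and mitosis, are given beside the members as the other main set of cell cycle genes. Of 50 measured, 43 were lower on day 14 than on day 2 (14.8% of all measured genes were). The median log2 ratio of these 50 was -2.16, with -2.21 for the members. Aurka, Kif2c, Cdk1 and Kif20a were the lowest, from -3.43 to -3.12. Between days 3 and 5, 37 of 50 were lower (median -1.25), against 28 of 47 members (median -1.08) and 5.97% of all measured genes. Between days 5 and 14, 4 of 50 were lower (median -0.44), against 9 of 47 members (median -0.76) and 3.10% of all measured genes. Of 46 above the floor on all arrays, 40 had their largest step from day 3 to day 5 and 6 into day 14, beside 34 and 7 of the 45 members. As deposited the members' numbers were 15 and 21, and 11 of 47 members were lower between days 3 and 5. The steps of the G2 and mitosis genes are given under the trimmed mean scaling alone. No difference between the groups was tested.

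**Figure D5:**
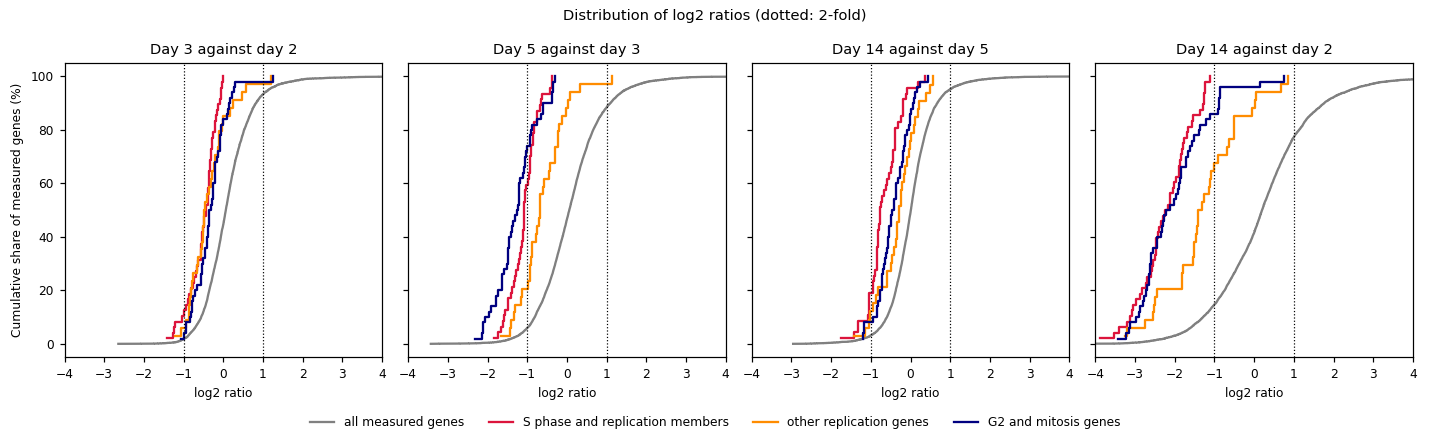
Cumulative share of measured genes (y axis, percent) by log2 ratio (x axis, cut at -4 and 4) in 4 comparisons, for the members, other replication genes, G2 and mitosis genes and all measured genes. In the panel of day 14 against day 2 the members' curve is complete before the dotted line at 2-fold lower, where all measured genes stand at 14.8%.

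Genes that control entry into S phase did not move as a group. Of 22 measured G1 to S regulators, 6 were lower and 8 higher on day 14 than on day 2 (median log2 ratio 0.50). Of all measured genes, 14.8% were lower and 22.8% higher. Cdc25a, the phosphatase that activates CDK2, was 4.82-fold lower and Skp2, which targets CDK inhibitors for destruction, 4.68-fold lower. Cdkn1c, which encodes the CDK inhibitor p57, was 14.9-fold higher and Ccnd2, cyclin D2, 5.67-fold higher. Tfdp1, the DNA-binding partner of E2F proteins, was 3.14-fold lower, and E2f4, E2f5 and E2f6 did not pass 2-fold.

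In a bulk sample, fewer cells in S phase and less RNA per cell cannot be told apart. The myogenic markers were present: of 10 on the array, 7 were above the floor on day 2, 8 on day 3 and 10 on days 5 and 14. Their summed signals, in which bright probe sets weigh most, were 6583, 12184, 11855 and 16317. On day 14, 7 of the 10 were called higher than on day 2, where 22.8% of all measured genes were. Of these 7, Pax7, Chodl and Calcr were under the floor on day 2, so a ratio above 0 was built into their measurement. Myod1, the myoblast factor, was lower (2272 to 935.0, a log2 ratio of -1.28). Myog, the factor of differentiation, was higher on day 14 than on day 2 (2.81) but lower on day 5 than on day 3 (-1.08). Over the whole course every measured marker of the other cell types had a log2 ratio above 0, as had 4484 of 7668 measured genes. Many of these markers were under the floor on day 2, so a ratio above 0 was built into their measurement. They were 8 of the 10 macrophage and leukocyte, 4 of 9 fibroblast, 6 of 6 endothelial and 5 of 5 mural markers measured. At the last step 8 of 10 measured macrophage and leukocyte markers were below 0 (median -0.14). Of 15 macrophage and leukocyte markers, 2, 6, 10 and 10 were above the floor on days 2, 3, 5 and 14. Their summed signals were 237, 633, 1607 and 1509.8, and Cd3e, Itgam, Fcgr1, S100a8 and S100a9 stayed under the floor throughout. Of 11 fibroblast markers, 5, 6, 8 and 9 were above it, with sums of 2022, 4541, 13760.1 and 21098. Of 10 endothelial markers, 0, 1, 3 and 6 were above it, with sums of 134, 188, 316 and 810.4. Pecam1, Cdh5, Tie1 and Emcn stayed under the floor throughout. Of the 6 measured, 4 were called higher on day 14 than on day 2, namely Tek, Cldn5, Esam and Vwf (22.8% of all measured genes were). Of 6 mural markers, 0, 3, 4 and 5 were above it, with sums of 78.3, 309, 1102 and 2568. For Gapdh, the 3′ probe set divided by the 5′ one, a measure of how long the labelled RNA was, gave 2.17, 1.88, 2.87 and 2.84 on days 2, 3, 5 and 14, and for Actb it gave 1.80, 2.20, 2.19 and 2.14. The part of these markers and ratios in the members' values was not tested.

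The members with an E2F match in the promoter are set here beside those without one. Over the whole course, the 14 with a match had a median log2 ratio of -2.09 and the 26 measured members with an entry and no match -2.33. Of the 14, 2 (Orc1 and Rfc3) entered at their bound, and 0 of the 26 did, so the first median may understate the difference. Which group differed more cannot be told from these medians. On day 3 the medians were -0.51 and -0.45. At that step, where 1.80% of all measured genes were lower, 4 of the 14 and 0 of the 26 were called, but as deposited 4 and 5 were (4.21% of all measured genes). These counts are a description, and no test was made.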

How the data were processed

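The authors deposited signal intensities (linear, not logged) for each probe set, made with MAS5 per the submitters' processing notes. The sources used here give neither its settings nor a target for scaling. Per the labels' protocols, RNA was labelled with biotin by an assay for small samples. The arrays' medians as deposited ran from 29.6 to 54.1. With 1 array a day, the number of arrays limits the precision.

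Scaling brought the arrays to the same 2% trimmed mean (factors 0.917 to 1.13), and signals under 43.0 were set to that floor before log2 was taken. Probe sets above the floor made up 45.0%, 49.5%, 52.0% and 53.5% on days 2, 3, 5 and 14. Probe sets with 1 symbol in the platform annotation numbered 20393, those with several 691, and 1606 were unnamed. For a gene with several probe sets, the one brightest on average (log2 scale) stands for it. Neighbouring days were compared, and day 14 with day 2, without a test. The members, lists and rules were chosen with earlier results of these data known. Members given with all 4 signals were, per role group, the 3 with the largest and the 1 with the smallest log2 ratio of day 14 against day 2, and some others, chosen after their values were seen. From other lists up to 4 called genes with the largest such ratios were named, and others after their values were seen. The code was tested on simulated data. The alternatives were 3 scalings, 3 treatments of low signals, 2 ways to represent a gene, 1.5-fold calls, and genes above the floor on both arrays only. The comparisons within one label wording and the step tallies by scaling were added after seeing the data. Python 3.11.15, numpy 2.4.6 and pandas 2.3.3 were used.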

Additional observations from a re-analysis of the deposited data

How the results depend on the processing

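No member was called higher under any of the 10 other settings, and in the whole course 45 to 48 members were lower in each. Values as deposited gave 10 members lower on day 3 and 11 on day 5. A common median gave 21 on day 3, with a median log2 ratio of -0.93, and -3.05 for day 14 against day 2. Calls at 1.5-fold gave 15, 44 and 29 members lower at the 3 steps, beside 9.10%, 17.1% and 10.3% of all measured genes. The other counts lay within 1.5 times the reported ones. The other medians moved by less than the SD between probe sets over all genes (0.36, 0.37 and 0.32 at the steps, 0.55 over the course), the median on day 5 being -0.77 as deposited, a shift beyond the members' own SD of 0.28. The scaling also moved all genes: their median log2 ratio at the 3 steps was 0.06, 0.06 and 0.01 as reported, -0.12, 0.33 and -0.08 as deposited, and -0.41, -0.16 and -0.10 with a common median. The share of called genes that were higher was 78.8%, 66.1% and 60.8%, and 52.6%, 87.4% and 50.5% as deposited, and 20.9%, 41.0% and 48.3% with a common median. Relative to all genes, the members' median differed by -0.40 to -0.55 on day 3, -1.08 to -1.15 on day 5, -0.65 to -0.80 on day 14 against day 5, and -2.14 to -2.56 over the whole course. In that comparison calls were lost for Orc1 (log2 ratio -0.27) and E2f1 (-0.94) with a floor of 85.9, and for E2f1 (-0.86) with the median over probe sets. No paired analysis was possible because each day has 1 array. Signals near the floor, such as those of Orc1 after day 2 and of Cdc6, Mcm10 and Ung on day 14, give little precision.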
